A study of Homo sapiens with 6 samples.

Results

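ATAC-seq, in which the Tn5 transposase cuts and tags open chromatin, was examined at the loci of PDE3A, LNPEP, ZBTB46, RGS18 and LINGO2 in HLF, a cell line from a human hepatocellular carcinoma. The 5 genes were chosen for the 5 leading lost sites of the series, which lie in PDE3A, LNPEP and ZBTB46 and in intergenic sequence assigned to RGS18 and LINGO2. A lost site had a peak in 3 of 3 libraries treated with DMSO, the vehicle, and in 0 of 3 libraries treated with 5 μM SNDX-5613. Both groups were the same unmodified cell line in 1 batch, with 3 libraries each, and the labels give 24 h of treatment, whereas the methods of the study give a longer time for this assay. Peaks overlapping between libraries were merged into 166021 sites. Of these, 250 lay within the gene bodies or within 200 kb of them, or 600 kb for RGS18. The PDE3A locus held 32 sites, LNPEP 48, ZBTB46 74, RGS18 60 and LINGO2 36. The gene bodies are chr12:20368537-20688583 for PDE3A, chr5:96935394-97037513 for LNPEP, chr20:63743668-63832038 for ZBTB46, chr1:192158462-192185815 for RGS18 and chr9:27937617-29213601 for LINGO2 (hg38), so RGS18 spans 27.4 kb and LINGO2 1276 kb.

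SNDX-5613 blocks the binding of menin to MLL1, a methyltransferase that deposits H3K4 methylation at promoters. Open sites mark promoters, enhancers and insulators, and the loss of a peak means that cuts no longer rose above the local background by the caller's threshold. In bulk libraries, fewer cells with an open site and a lower openness in each cell cannot be told apart. The members have unrelated roles. PDE3A hydrolyses cAMP, LNPEP is a membrane aminopeptidase that cleaves oxytocin, and ZBTB46 is a zinc finger transcription factor that marks classical dendritic cells. RGS18 shortens G protein signalling in platelets and their precursors, and LINGO2 is a leucine-rich repeat membrane protein of neurons.

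The sequences under 4 of the leading sites are given first (hg38, forward strand), since their position and composition differ. The PDE3A site was chr12:20549247-20549386, in an intron 22.5 kb from the nearest annotated start site, and the LNPEP site was chr5:96997381-96997510, in an intron 1067 bp from a start site. The ZBTB46 site was chr20:63831276-63831459, in the promoter, 103 bp from a start site of this gene. The site at RGS18 was chr1:191641446-191641877, an intergenic site 517 kb from the RGS18 gene body and 182 kb from the nearest start site, that of LINC02770. The site nearest LINGO2 was also intergenic, 1429 kb from the LINGO2 gene body and therefore outside its 200 kb reach, with LINC01242 as the nearest gene at 68.1 kb. For the site at RGS18, 300 bases around the summits are printed, at chr1:191641462-191641761. Capitals mark the best match to the CTCF consensus in the PDE3A and LNPEP sites, CCAAT or its reverse complement (the NF-Y motif) in the ZBTB46 and RGS18 sites and TGANTCA (AP-1) in the RGS18 site.
PDE3A: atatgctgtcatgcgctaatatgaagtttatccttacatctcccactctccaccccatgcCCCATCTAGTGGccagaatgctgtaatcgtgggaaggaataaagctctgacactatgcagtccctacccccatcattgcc
LNPEP: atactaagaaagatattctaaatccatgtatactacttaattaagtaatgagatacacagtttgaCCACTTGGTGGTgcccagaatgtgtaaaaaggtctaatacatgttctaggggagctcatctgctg
ZBTB46: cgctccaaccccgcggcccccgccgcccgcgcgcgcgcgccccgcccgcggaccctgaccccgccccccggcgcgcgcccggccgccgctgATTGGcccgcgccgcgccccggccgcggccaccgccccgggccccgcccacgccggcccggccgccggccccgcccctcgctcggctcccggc
RGS18: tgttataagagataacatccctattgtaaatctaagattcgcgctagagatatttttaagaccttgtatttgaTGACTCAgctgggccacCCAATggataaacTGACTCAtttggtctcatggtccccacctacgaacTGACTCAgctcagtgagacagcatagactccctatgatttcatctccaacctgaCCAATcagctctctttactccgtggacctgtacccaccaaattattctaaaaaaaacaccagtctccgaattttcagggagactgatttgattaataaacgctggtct

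No motif searched by exact letters was shared by all 4 sequences. Within 100 bp of the summit, CCAAT was found on either strand at the ZBTB46 and RGS18 sites, against 24.3% of all sites, and TGANTCA at the RGS18 site, against 15.5%. The RGS18 sequence held 3 copies of TGANTCA and 2 of CCAAT, the latter starting at bases 91 and 193 of the printed run, on either side of the summits at bases 149 to 158. At ZBTB46 the CCAAT box started at base 92, just before the summits at bases 102 to 106. GGGCGG (SP) was found at the ZBTB46 site, against 14.5% of all sites. CATTCC (TEAD, 15.5% of all sites) and AGATAA (the motif of the GATA factors, 6.98% of all sites) were found at 0 of these 4 sites within this window, and the AGATAA near the start of the printed RGS18 run lay outside it. The CTCF consensus of 12 letters, which was added after the sequences were seen, was matched at 11 letters in the PDE3A site, as in 15.3% of all sites at 11 or more. It was matched at 10 letters in the LNPEP and RGS18 sites, as in 39.7% of all sites at 10 or more. These matches describe letters, and binding was not measured.

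Base composition spanned a wide range. Within 100 bp of the summit, G and C made up 92% at the ZBTB46 site, 45.8% at RGS18, 39.3% at PDE3A and 31.8% at LNPEP. Over all sites the median was 52.2%, with a 5th percentile of 38.3% and a 95th of 71.1%. Every run of 50 bases in the PDE3A, LNPEP, ZBTB46 and RGS18 sequences occurred once in the 24 chromosomes. Part of the region under the site nearest LINGO2 occurs more than once, and the part of mapping in its pileups was not tested.

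The choice of members fixed the presence of the leading sites, so their values are a description without a test. The pileup, the number of overlapping reads or fragments at the summit, was recovered from the deposited fold and −log10 p of each peak. At the PDE3A site it was 45, 52 and 38 in DMSO replicates 1, 2 and 3. At the LNPEP site it was 41, 58 and 38, and at the ZBTB46 promoter 58, 69 and 72. At the RGS18 site it was 38, 60 and 42, and at the site nearest LINGO2 42, 35 and 36. None of the 3 SNDX-5613 libraries had a peak at any of these 5 sites.

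Within each library's list, ranked by −log10 p, the leading sites stood well above the median region. The PDE3A site was at the 82.4th, 83.6th and 73.7th percentile in DMSO replicates 1 to 3, and the LNPEP site was between 73.7 and 85.8, highest in replicate 2. The ZBTB46 promoter was at 71.9, 75.5 and 74.7, the RGS18 site at 75.0, 83.4 and 73.9, and the site nearest LINGO2 at 80.7, 73.7 and 72.0. The members were chosen on the lowest of the 3 percentiles. It was 71.9 for the ZBTB46 promoter, just inside, and 70.5 for a site nearest CD63, just outside, so the boundary is not a gap. Over all 1953 lost sites the median of this lowest percentile was 19.8.

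The 3 SNDX-5613 libraries differed in depth, and so in the weakest site they could show. The background implied by the lists was 0.997 to 1.45 in the DMSO libraries, 1.26 and 1.51 in SNDX-5613 replicates 1 and 2, and 0.211 in replicate 3, which is 16.2% of the median of the other 5. Its list had 40568 regions, against 88026 to 113675 in the others. Scaled to the depth of each library, the DMSO pileups at the 5 sites would be 33.8 to 79.8 in replicates 1 and 2, where peaks were called from a pileup of 6 to 19 at such a background. In replicate 3 they would be 5.66 to 11.2, where peaks were called from 3 to 6. At each leading site the scaled pileup was above the lowest called pileup in all 3 libraries, as the plot of pileups shows. That lowest value is a minimum over called summits, not a level at which a peak is always called. In replicate 3 the numbers were small, 5.66 against 3 at the site nearest LINGO2 and 11.2 against 6 at ZBTB46. Counting error was not modelled.

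**Figure D1:**
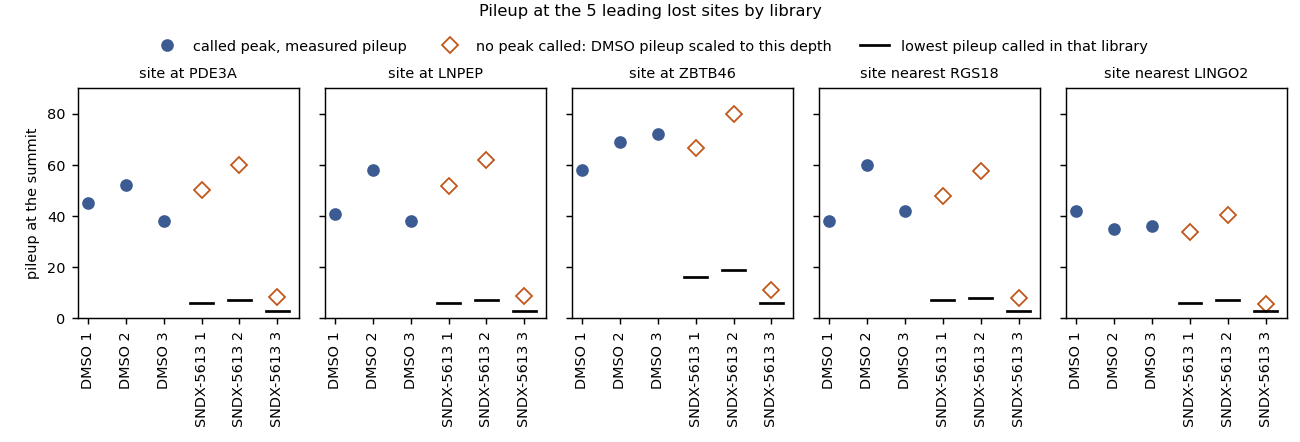
Pileup at the summit (y axis) in each of the 6 libraries (x axis) for the 5 leading lost sites. Filled circles are called peaks, open diamonds give the median DMSO pileup scaled to the depth of a library without a peak, and black bars give the lowest pileup called there at that background. The diamonds lie at 33.8 to 79.8 in SNDX-5613 replicates 1 and 2 and at 5.66 to 11.2 in replicate 3, above every bar.

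The leading sites were of 2 shapes. The PDE3A regions were 110 to 130 bp wide and the LNPEP regions 101 to 130 bp, with summits within 6 and 3 bp of each other. Among regions of the same library with a pileup within 10%, only 1.65% to 4.45% were as narrow as the PDE3A region and 0.563% to 4.44% as narrow as the LNPEP region. The ZBTB46 regions were 127 to 182 bp wide, with 2.73% to 17.8% of such regions as narrow, and their local background of 6.14 to 8.20 was the highest of the 5. The RGS18 regions were 360 to 432 bp wide and the LINGO2 regions 250 to 413 bp, and 62% to 69.1% and 39.4% to 73.1% of such regions were as narrow. The DMSO consensus set covered all 5 sites. The SNDX-5613 consensus set covered the RGS18 and LINGO2 sites although no SNDX-5613 list had a peak there, as for 22.8% of all lost sites.

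Of the 250 sites, 9 were lost, or 3.6%, beside 1.18% of all sites. The count was 20 of 242 without DMSO replicate 1, 15 of 232 without DMSO replicate 3 and 14 of 242 without SNDX-5613 replicate 1, and 5 of 86 with an equal number of regions in each list. With a library left out, fewer libraries have to meet the rule for a lost site. The share of all sites lost under these settings was not counted, so these counts cannot be set against the 1.18%. Leaving out the 4 leading sites that lie within the reach, 5 of 246 were lost, or 2.03%. These were 1 in an exon of PDE3A, 132 kb from its leading site, 1 in an intron of RGS13, 1013 kb from the site at RGS18, and 3 at LINGO2, with 2 in its introns and 1 upstream. The 3 are 8.33% of the 36 LINGO2 sites, the highest share of the 5 loci. Their DMSO pileups were 7 to 16, and at the depth of SNDX-5613 replicate 3 all 5 would be at 1.48 to 2.59, below the lowest called pileup of 3. They rest on replicates 1 and 2 alone, where the scaled pileups of 8.85 to 18.5 lay above the lowest called values of 6 and 7. No site at the 5 loci was gained, that is, called in every SNDX-5613 library but in no DMSO library, beside 0.147% of all sites. Without the shallow replicate 3, 2 sites at the ZBTB46 locus had a peak in both SNDX-5613 libraries and in no DMSO library, 1 in the promoter of STMN3 and 1 in a promoter of RTEL1. They are 2.7% of the ZBTB46 sites and 0.8% of the 250, beside 2.39% of all sites. Both ranked low, with pileups of 9 and 12 in SNDX-5613 replicates 1 and 2. The percentiles there were 7.06 and 9.77 at STMN3 and 18.6 and 28.9 at RTEL1. Another promoter site of STMN3 close by had a peak in 2 DMSO libraries and 1 SNDX-5613 library.

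Each of the 5 leading sites had a site called in all 3 DMSO and both deeper SNDX-5613 libraries within 30 kb, as the map shows. The nearest lay 21.7 kb away at PDE3A, 29.2 at LNPEP, 3.84 at ZBTB46, 9.46 at RGS18 and 13.6 at the site nearest LINGO2. Within 200 kb there was 1 other lost site at PDE3A and 1 at RGS18, and there was none at LNPEP, ZBTB46 or the site nearest LINGO2. Over all lost sites the median was 0, and 55.9% had no other lost site within 200 kb. The other lost site near RGS18 lay 108 kb from the leading site, outside the locus, so it is not among the lost sites counted there. At PDE3A, the intronic site 21.7 kb away had pileups of 21, 23 and 29 in DMSO and 23 and 20 in SNDX-5613 replicates 1 and 2. At LNPEP, the intronic site 29.2 kb away had 43, 57 and 71 in DMSO and 48, 58 and 9 in SNDX-5613, and so was called in all 6 libraries. At ZBTB46, an intergenic site only 3.84 kb from the lost promoter site had 94, 114 and 101 in DMSO and 129, 109 and 18 in SNDX-5613.

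The site at RGS18 stood in weaker surroundings. The site 9.46 kb away had pileups of 25, 18 and 30 in DMSO but 9 and 11 in SNDX-5613 replicates 1 and 2, and none called in replicate 3. The site 45.1 kb away on the other side had 26, 44 and 21 in DMSO and 14 and 18 in those replicates. Both SNDX-5613 pileups were below all DMSO pileups at each of these 2 sites. By rank among sites of the 5 deeper libraries, the first separated the groups too, whereas the second did not, with 40.5, 52.7 and 17.4 in DMSO and 12 and 20.8 in SNDX-5613. Beside the site nearest LINGO2, 13.6 kb away, pileups were 16, 25 and 25 in DMSO and 14, 17 and 4 in SNDX-5613.

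**Figure D2:**
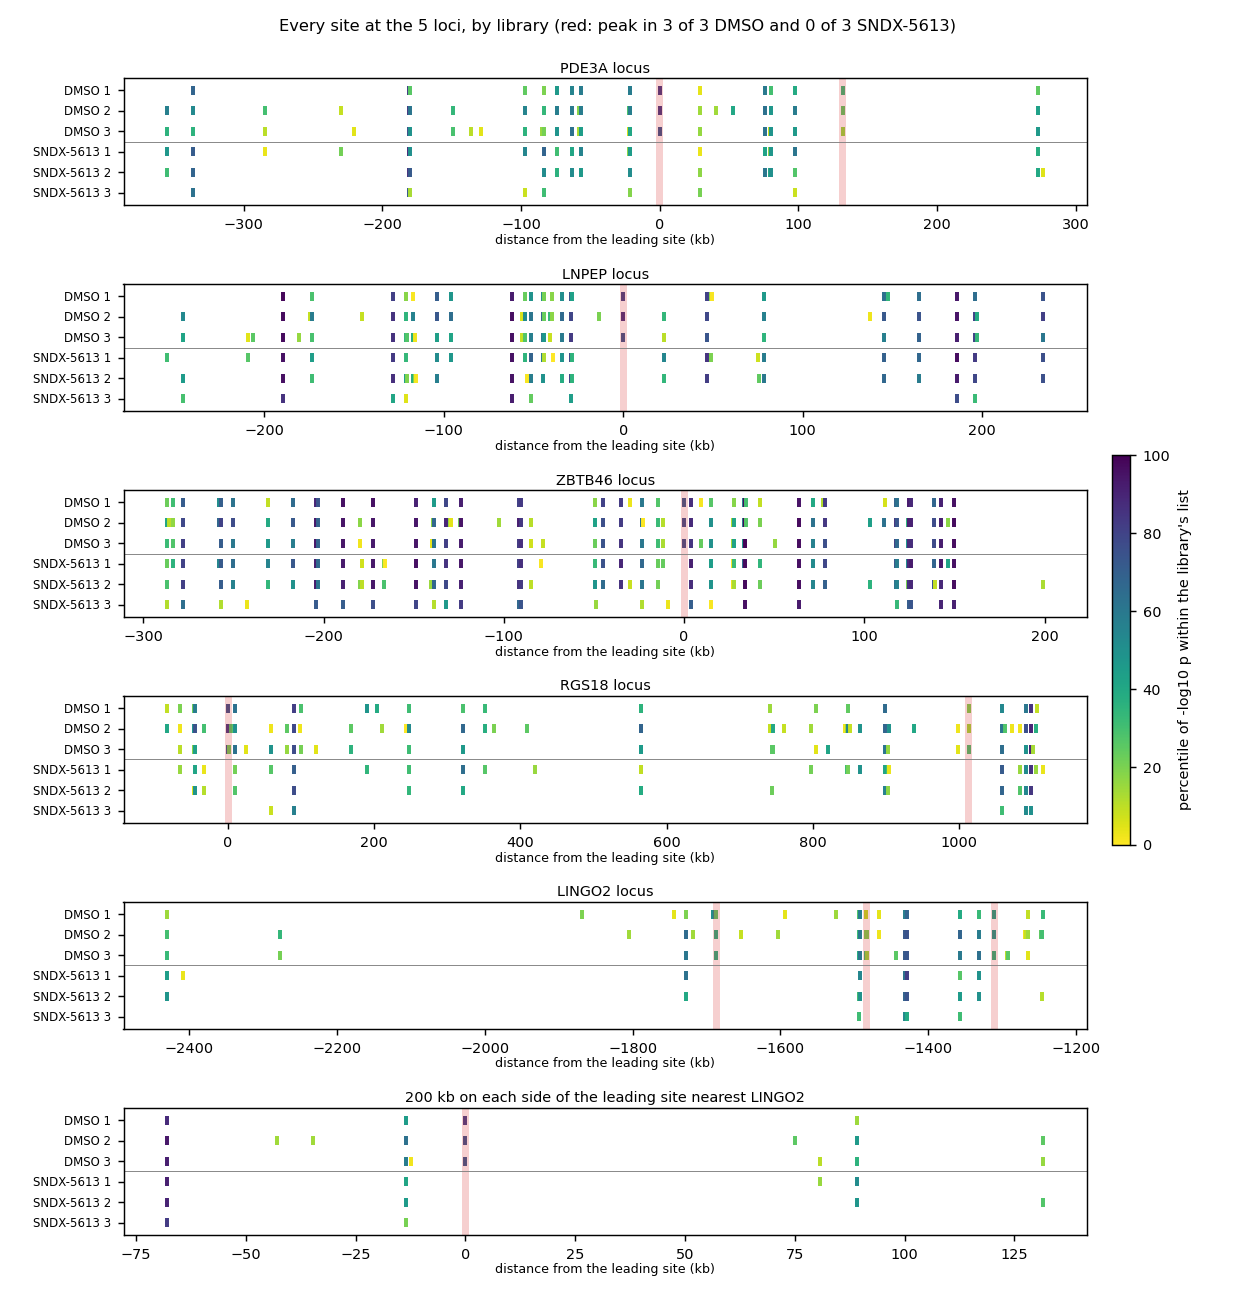
Every site at the 5 loci, and around the leading site nearest LINGO2, by distance from the leading site in kb (x axis) and by library (rows). Ticks mark libraries with a peak, coloured by percentile of −log10 p within the library's list, and red bands mark lost sites. The bands, 2 at PDE3A and 1 each at LNPEP and ZBTB46, lie among sites of both kinds, kept in both groups or called in DMSO libraries only, while many columns at RGS18 and LINGO2 are filled in DMSO rows only.

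Peaks seen only in DMSO libraries, with the lost sites counted among them, were frequent at 2 of the loci. A site with a peak in at least 1 DMSO library and in no SNDX-5613 library made up 24 of 36 sites at LINGO2, or 66.7%, and 32 of 60 at RGS18, or 53.3%. The share was 34.4% at PDE3A (11 sites), 29.2% at LNPEP (14 sites) and 23% at ZBTB46 (17 sites), beside 23.8% of all sites. Sites seen only in SNDX-5613 libraries numbered 21 of 250, or 8.40%, beside 19.7% of all sites. Most of the sites seen only in DMSO libraries were weak. Of the 250 sites, 87 were called in 1 library alone, or 34.8%, beside 36.2% of all sites. These included 18 of 36 at LINGO2, or 50%, and 25 of 60 at RGS18, or 41.7%. With a peak in at least 2 DMSO libraries and in no SNDX-5613 library there were 8 sites at LINGO2, 9 at RGS18, 6 at LNPEP, 4 at PDE3A and 3 at ZBTB46, together 12% beside 4.78% of all sites. The 12% includes the 9 lost sites, and so the leading sites within the reach, which chose the members.

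Since longer lists hold more sites, the sites with a peak at a locus were counted per 10000 regions of each list. This scaling does not level depth, so densities without the shallow SNDX-5613 replicate 3 are also given below. At LINGO2 the density was 2.16, 2.11 and 1.87 in DMSO and 0.838, 1.03 and 0.986 in SNDX-5613, so the groups did not overlap. With each list shortened to an equal number of regions they did overlap, at a ratio of 0.577 for replicates 1 and 2. At RGS18 it was 2.73, 3.96 and 3.11 in DMSO and 2.42, 1.65 and 1.23 in SNDX-5613, again without overlap. LNPEP had 3.18, 2.82 and 3.32 in DMSO and 2.52, 2.68 and 2.22 in SNDX-5613, also without overlap. Among 16263 protein-coding gene loci of 200 kb reach with at least 20 sites, 6.14% had all 3 SNDX-5613 densities below all DMSO densities, and the share was 5.92% of 19448 loci at 600 kb reach. The groups overlapped at PDE3A, with 1.93, 2.2 and 2.80 in DMSO and 1.86, 1.65 and 1.97 in SNDX-5613. They also overlapped at ZBTB46, with 5.11, 5.01 and 4.88 in DMSO and 4.38, 4.85 and 6.16 in SNDX-5613, where the highest value was that of the shallow replicate 3.

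With SNDX-5613 replicates 1 and 2 alone, both densities were below all 3 DMSO densities at each of the 5 loci, beside 16.5% of gene loci at 200 kb reach and 14.1% at 600 kb. The ratio of the mean SNDX-5613 to the mean DMSO density was 0.457 at LINGO2, 0.624 at RGS18, 0.760 at PDE3A, 0.837 at LNPEP and 0.923 at ZBTB46. Over the gene loci of 200 kb reach the median was 0.989, and 0.0492% of them had a ratio at or below that of LINGO2. Over those of 600 kb reach, the reach used for RGS18, the median was 1.004. Without the leading site the ratio was 0.644 at RGS18, 0.796 at PDE3A, 0.865 at LNPEP and 0.942 at ZBTB46, and both SNDX-5613 densities then stayed below all DMSO densities at RGS18, LNPEP and LINGO2. The leading site nearest LINGO2 does not enter the LINGO2 count. The leading sites chose the members, so the densities were not tested.

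**Figure D3:**
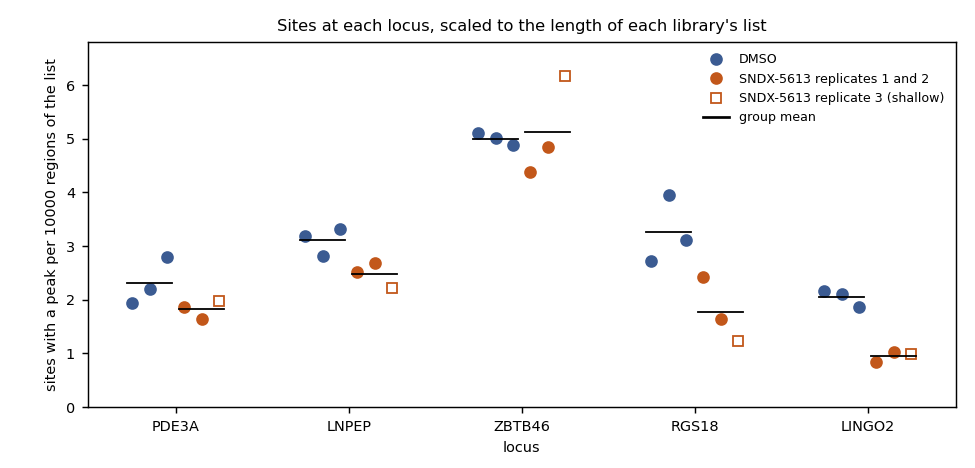
Sites with a peak per 10000 regions of the list (y axis) at each locus (x axis), 1 point for each library, with black lines at the group means. All 3 SNDX-5613 points lie below all DMSO points at LNPEP, RGS18 and LINGO2, and the open square of the shallow SNDX-5613 replicate 3 lies highest at ZBTB46, at 6.16.

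The strongest site of each locus, by its median percentile over the libraries, was a promoter called in all 6 libraries. It was the PDE3A promoter itself at PDE3A (82.7), the ERAP1 promoter at LNPEP (96.5) and a promoter beside TPD52L2 at ZBTB46 (97.4). At RGS18 it was the promoter of ENSG00000285280 (85.5), and at LINGO2 the promoter site shared with ENSG00000287038 (73.8).

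Sites kept in both groups were compared by rank, which removes the scale of each list. Of the 250 sites, 42 had a peak in all 6 libraries: 22 at ZBTB46, 8 at LNPEP, 5 at PDE3A, 4 at RGS18 and 3 at LINGO2. Another 40 were missing from SNDX-5613 replicate 3 alone. Among the 42, the ranks of all 3 SNDX-5613 libraries were below all DMSO ranks at 5 sites and above at 2, beside 8.08% and 8.54% of the 33405 sites in all 6 libraries. Ranked by fold, 3 were below and 3 above. The 2 higher sites were both at PDE3A, and the lower sites were at ZBTB46 (3), LNPEP (1) and RGS18 (1).

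The 5 lower sites lay at neighbouring genes, in promoters or introns. The promoter of ERAP1, an aminopeptidase that trims peptides for MHC class I, had a rank percentile of 92 ± 3.07 in DMSO and 85.8 ± 3.02 in SNDX-5613 (SD, n = 3 each). The promoter of HELZ2, a helicase 257 kb from the lost ZBTB46 site, had ranks of 33.8, 40.0 and 29.1 in DMSO and 25.8, 27.9 and 4.86 in SNDX-5613, the lowest in the shallow library. An intronic site of STMN3 had mean ranks of 85.0 in DMSO and 71.9 in SNDX-5613, and an intronic site of UCKL1 24.7 and 14.5. The promoter of the gene ENSG00000285280, at the far end of the RGS18 locus, had ranks of 62.6, 64.9 and 69.8 in DMSO and 54.9, 55.1 and 41.0 in SNDX-5613.

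With the 5 deeper libraries, 82 sites could be ranked, of which 20 were lower in both SNDX-5613 replicates than in all DMSO libraries and 10 were higher. These are 24.4% and 12.2%, beside 14.4% and 14.3% of all 59986 such sites. By locus, the lower and higher sites numbered 4 and 1 at RGS18, 8 and 2 at ZBTB46, 4 and 3 at LNPEP, and 2 and 2 at both PDE3A and LINGO2. The median difference in rank percentile, SNDX-5613 minus DMSO, was −10.64 at RGS18, −4.71 at LINGO2, −2.61 at PDE3A, −2.01 at ZBTB46 and 0.34 at LNPEP, beside −0.13 over all such sites. The site 9.46 kb from the lost site at RGS18 had mean ranks of 35.3 in DMSO and 3.58 in SNDX-5613. A site in an intron of ENSG00000285280, 898 kb from the lost site, had 43.3 and 21.3. At PDE3A the 2 lower intronic sites, 74.1 and 62.9 kb from the lost site, had 25.1 and 7.92, and 35.4 and 18.9. Close to them in the same gene, 83.2 kb from the lost site, a site was higher, with pileups of 9, 12 and 10 in DMSO and 28, 20 and 5 in SNDX-5613.

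**Figure D4:**
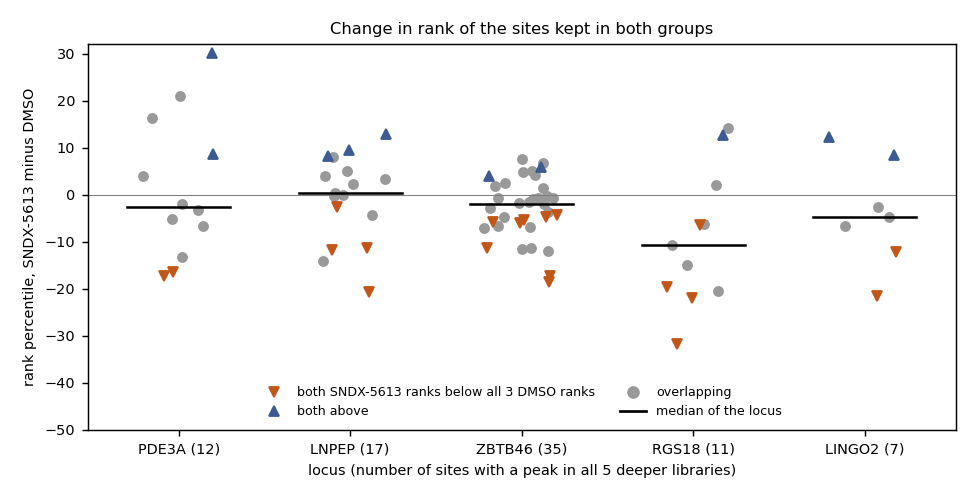
Difference in rank percentile, SNDX-5613 replicates 1 and 2 minus the 3 DMSO libraries (y axis), for the 82 sites with a peak in all 5 deeper libraries, by locus (x axis). Triangles mark sites whose ranks do not overlap between the groups and black lines the median of each locus, which was lowest at RGS18, at −10.64.

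The promoters of the members were compared next, leaving out the leading site itself. The stronger of 2 PDE3A promoter sites, at chr12:20367973-20368935, had pileups of 66, 75 and 60 in DMSO and 88, 91 and 18 in SNDX-5613. Its rank percentile among sites in all 6 libraries was 54.9, 47.0 and 37.5 in DMSO and 58.6, 58.6 and 66.3 in SNDX-5613, so it was higher in 3 of 3 SNDX-5613 libraries than in any DMSO library. The means were 46.5 ± 8.74 and 61.2 ± 4.47 (SD, n = 3 each). The difference of 14.7 had p = 0.1 in a two-sided exact permutation test, the smallest p that 3 against 3 libraries allow, and an adjusted p of 0.3 over the 3 members tested (Benjamini-Hochberg). It did not pass the 0.05 threshold, which this design cannot reach. Ranked by fold in place of −log10 p, the groups overlapped (difference 8.92, p = 0.4, exact permutation test). The weaker PDE3A promoter site, at chr12:20369030-20369912, was also called in all 6 libraries, and its groups overlapped by −log10 p. Its ranks were 2.70, 12.2 and 8.06 in DMSO and 5.67, 29.6 and 5.54 in SNDX-5613.

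The LNPEP promoter was among the strongest sites of the lists and did not separate the groups. Its ranks were 80.5, 87.7 and 87.9 in DMSO and 85.4, 85.4 and 90.4 in SNDX-5613, with p = 0.6 (exact permutation test, adjusted p = 0.6). The strongest LINGO2 promoter site had ranks of 31.0, 28.6 and 33.2 in DMSO and 45.2, 33.5 and 28.9 in SNDX-5613, with p = 0.4 (exact permutation test, adjusted p = 0.6). ZBTB46 had no promoter site other than the lost one. RGS18 had no peak within 1 kb of its start sites in any library.

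**Figure D5:**
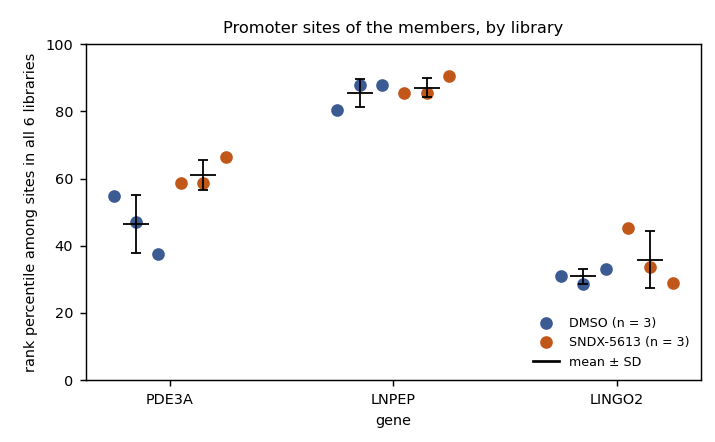
Rank percentile of the strongest promoter site among sites with a peak in all 6 libraries (y axis) for the 3 members that could be tested (x axis), 1 point for each library, with mean ± SD of each group in black. The 3 SNDX-5613 points lie at 58.6 to 66.3 for PDE3A, above its DMSO points, and overlap the DMSO points for LNPEP and LINGO2.

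Promoter peaks were also counted at relatives of each member. The share of all protein-coding genes with a promoter peak was not counted. No list can therefore be called more or less open than genes in general. Of 16 cAMP-hydrolysing phosphodiesterases, 16 had a promoter peak in at least 1 library and 11 in all 6. All SNDX-5613 ranks were above all DMSO ranks at PDE1B, PDE2A and PDE3A, and all were below at PDE3B, where the means were 70.9 and 68.4. These are 3 and 1 of the 11 that could be ranked, beside the 8.54% and 8.08% of all sites in all 6 libraries. At PDE1B, a calmodulin-dependent phosphodiesterase, the mean rank was 39.4 ± 9.47 in DMSO and 70.0 ± 4.35 in SNDX-5613 (SD, n = 3 each). At PDE2A it was 16.2 ± 3.49 and 37.6 ± 6.5. All 3 oxytocinase aminopeptidases, LNPEP, ERAP1 and ERAP2, lie side by side and had promoter peaks in all 6 libraries. Of 10 RGS genes of the R4 family, 5 had a promoter peak and 4 had one in all 6 libraries (RGS2, RGS3, RGS4 and RGS5). RGS1, RGS8, RGS13, RGS18 and RGS21 had none. Both LINGO1 and LINGO2 had an open promoter in every library, whereas LINGO3 and LINGO4 had none. Of 7 genes of classical dendritic cells, 6 had a promoter peak in at least 1 library. BATF3 and ID2 had one in every library and CLEC9A in none. FLT3 had one in 3 DMSO and 2 SNDX-5613 libraries, and IRF8 in 1 of each group. IRF4 had one in 1 DMSO library and ZBTB46 in the 3 DMSO libraries only.

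The genes that share the loci with the members were read in the same way, again without a share over all genes. At RGS18, 0 of 4 protein-coding genes (RGS1, RGS13, RGS18 and RGS21) had a promoter peak. At PDE3A, 1 of 4 had one, PDE3A itself, and the organic anion transporter family genes SLCO1B3, SLCO1B3-SLCO1B7 and SLCO1C1 had none. At LNPEP, 6 of 6 genes had a promoter peak and 5 had one in all 6 libraries, and at ZBTB46 16 of 22 and 13 of 22. Apart from ZBTB46, 0 of these genes had a lost promoter site. The cell type checked against the labels showed promoter peaks in all 6 libraries at 4 of 4 epithelial markers and at 4 of 4 mesenchymal markers. Endothelial markers had them at 0 of 3. Hepatocyte markers had them at 0 of 5, and ALB, APOA1 and HNF4A had no promoter peak in any library. TTR had one in 5 libraries, all but SNDX-5613 replicate 3, and SERPINA1 in 2.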

How the data were processed

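HLF cells were measured in 6 ATAC-seq libraries, 3 treated with DMSO and 3 with 5 μM SNDX-5613, grouped by the labels. Per the study's methods and the submitters' processing notes, the authors prepared nuclei by Omni-ATAC, aligned reads to hg38 with Bowtie2 2.3.4.1, marked duplicates with Picard 2.20.0 and called peaks per library with MACS2. Trim Galore 0.6.7, SAMtools and deepTools 3.5.4 are also named. A Tn5 shift and a blacklist were not given in the sources used here. The deposited lists hold a fold over background, a −log10 p-value and a −log10 q-value for each summit. The deposited consensus sets, built by the authors from the replicates, were used only for overlap. Read counts were not analysed here, so the authors' count model was not run.

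Regions that shared 1 bp or more were joined as a site in Python 3.11.15, pandas 2.3.3 and SciPy 1.17.1. Ranks are percentiles of −log10 p, within a list or among sites shared by all libraries compared. Pileups were solved from fold and −log10 p (98.9% to 100% of summits, to within 0.002). They are numbers of overlapping reads or fragments, which the files do not tell apart, and their size sets the counting error. Genes are from GENCODE 44. A promoter lies within 1 kb of a start site, and the strongest promoter site in all 6 libraries was taken. Named genes were the members, their families and the coding genes of the loci. The members, lists and tests were chosen with earlier results of these data known. The scripts were tested on simulated lists. The methods describe dishes split between treatments, but the labels do not tie replicate numbers to a dish. The deviations of same-numbered libraries correlated at 5.90e-05 to 0.0313, beside −0.0652 to 0.0391 for differently numbered libraries. Nothing in the labels says that replicates were separate cultures, so the p-values compare a difference with rearrangements of these libraries only. The results of 1 marker list and the sequence of 1 leading site are not reported here.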

Additional observations from a re-analysis of the deposited data

How the results depend on the processing

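All 5 leading sites were lost under a −log10 q of at least 3 and with an equal number of regions in each list. The choice of sites fixed this outcome, so it is no check. Shorter lists add no SNDX-5613 peak, and the DMSO peaks ranked too high to drop out. The 9 lost sites at the loci became 5 with an equal number of regions, and 9 to 20 when 1 library was left out, with 20 without DMSO replicate 1, 15 without DMSO replicate 3 and 14 without SNDX-5613 replicate 1. They were 6 to 12 under the other alternatives. The share of all sites lost under each alternative was not counted. No gained site appeared under any alternative except without SNDX-5613 replicate 3, which gave 2 (range 0 to 2). Sites with lower ranks in SNDX-5613 numbered 5, or 3 when ranked by fold (with 3 higher), and 5 to 20 with 1 library left out, the 20 without SNDX-5613 replicate 3. Sites with higher ranks numbered 2, and 2 to 10 with 1 library left out: 4 without DMSO replicate 1, 5 without DMSO replicate 3 and 10 without SNDX-5613 replicate 3. Without the shallow library 82 sites could be ranked in place of 42, and fewer libraries had to separate. The causes were not tested.

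The promoter difference kept its sign at PDE3A (8.61 to 18.7 with 1 library left out, 8.92 ranked by fold, p = 0.4, exact permutation test) and at LINGO2 (0.300 to 8.40). At LNPEP it was −0.745 to 2.94, reversed to −0.745 without DMSO replicate 1, and 13.7 ranked by fold (p = 0.7, exact permutation test). With the replicate block, an exact sign-flip test with a smallest p of 0.25, p was 0.25 at PDE3A and 0.5 at LNPEP and LINGO2, with the same differences of 14.7, 1.68 and 4.96. The density ratios with stricter lists were added after seeing the data. With an equal number of regions the ratio was 0.577 at LINGO2, where the groups then overlapped, and 0.897 at ZBTB46, where all 3 SNDX-5613 densities were then below all DMSO densities, as they were at PDE3A with a −log10 q of at least 3 (0.838), and with an equal number of regions the other 3 loci moved by less than the DMSO spread.

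Depth limits the weak sites most: the 5 lost sites besides the leading ones had scaled pileups below the lowest called value in SNDX-5613 replicate 3.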
